A study of Homo sapiens with 14 samples.

Results

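Steroid receptor coregulators are the proteins through which a hormone-bound receptor raises or lowers transcription. The 8 genes described here encode 6 coactivators (NCOA1, NCOA2, NCOA3, MED1, EP300 and CREBBP) and 2 corepressors (NCOR1 and NRIP1) of the progesterone receptor (PR). They were chosen by function, not by any value of these data, out of 19821 protein-coding genes on chromosomes 1 to 22 and X. Earlier results of these data were known when the choice was made. Every region of the deposited peak lists that reached the gene's GRCh38 RefSeq span or the 50 kb on either side was taken as its own, and this stretch is called the gene's window. The 8 windows held 181 of the 227513 regions in the lists.

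The data are chromatin immunoprecipitation sequencing (ChIP-seq) of T47D, an established breast cancer cell line that carries the oestrogen receptor and PR. Cells of all groups were grown with serum and insulin and then exposed for 1 h to progesterone (P4) or to its ethanol vehicle. The P4 dose is not given in the sources used here. Chromatin was sonicated and pulled down with an antibody to PR or to POLR3A, which is the largest of the RNA polymerase III subunits. There were 3 replicate libraries for each antibody and treatment and 1 pooled input per treatment, 14 libraries in all, but each antibody and treatment came as 1 peak list. No value per replicate was used here, so no difference between lists could be set against the spread between replicates, and no test was possible.

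A receptor that has bound its hormone uses coactivators to acetylate histones and to reach Mediator, the complex that links enhancers to RNA polymerase II, while corepressors bring histone deacetylases. NCOA1, NCOA2 and NCOA3 form the steroid receptor coactivator family, which binds the receptor directly. EP300 and CREBBP are paralogous histone acetyltransferases that join through these coactivators. MED1 is the Mediator subunit that contacts nuclear receptors. NCOR1 is a scaffold for a histone deacetylase complex, and NRIP1, also called RIP140, binds hormone-occupied receptors and represses many of their targets. The regions below describe where PR and POLR3A were found around the genes for these proteins. They do not measure expression of the genes or binding of the coregulators themselves.

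The promoter sequences of 4 genes are shown because a region of at least 1 list reached the 250 bases before their outermost transcription start. They are the RefSeq sequences of GRCh38.p14, written 5′ to 3′ on the gene's own strand and ending at the base before the start. Capitals mark the bases that lay within every list that reached that promoter: all 4 lists at NCOA3, both POLR3A lists at MED1, the POLR3A vehicle list at NCOR1 and the PR P4 list at NRIP1. The windows are chr20:47501637-47501886 on the plus strand for NCOA3, and on the minus strand chr17:39451264-39451513 for MED1, chr17:16215535-16215784 for NCOR1 and chr21:15065937-15066186 for NRIP1.
NCOA3: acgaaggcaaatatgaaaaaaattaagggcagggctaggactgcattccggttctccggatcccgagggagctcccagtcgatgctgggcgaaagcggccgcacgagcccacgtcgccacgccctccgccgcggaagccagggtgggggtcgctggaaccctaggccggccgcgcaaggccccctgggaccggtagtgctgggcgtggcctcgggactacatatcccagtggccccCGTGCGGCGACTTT
MED1: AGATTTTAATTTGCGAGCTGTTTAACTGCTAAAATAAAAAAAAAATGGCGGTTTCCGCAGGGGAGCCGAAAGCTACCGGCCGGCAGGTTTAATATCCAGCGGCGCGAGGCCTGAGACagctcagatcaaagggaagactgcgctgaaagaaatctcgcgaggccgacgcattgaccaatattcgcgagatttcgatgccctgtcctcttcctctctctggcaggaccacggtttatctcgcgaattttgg
NCOR1: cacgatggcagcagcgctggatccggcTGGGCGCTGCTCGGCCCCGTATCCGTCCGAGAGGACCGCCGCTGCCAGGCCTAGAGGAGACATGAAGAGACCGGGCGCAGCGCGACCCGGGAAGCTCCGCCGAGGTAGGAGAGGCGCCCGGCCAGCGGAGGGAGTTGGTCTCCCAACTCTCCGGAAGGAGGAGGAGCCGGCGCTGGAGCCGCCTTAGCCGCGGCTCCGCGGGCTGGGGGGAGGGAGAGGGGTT
NRIP1: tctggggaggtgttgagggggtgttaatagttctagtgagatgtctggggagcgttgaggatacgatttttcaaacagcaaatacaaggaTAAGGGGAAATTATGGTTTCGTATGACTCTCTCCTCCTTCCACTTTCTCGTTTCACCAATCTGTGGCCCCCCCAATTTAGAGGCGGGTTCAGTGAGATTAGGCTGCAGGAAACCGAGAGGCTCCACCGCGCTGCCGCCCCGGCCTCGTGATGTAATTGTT

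Capitals cover 14 of the 250 bases at NCOA3, 117 at MED1, 223 at NCOR1 and 160 at NRIP1. At NCOA3 the PR vehicle region set this number, since each of the other 3 lists covered all 250 bases. Both strands of these windows were searched for AGAACA, a single arm of the progesterone response element, for the full palindromic element, for the GC box GGGCGG, and for CCAAT and TATAAA. No match to the full element was found in any of 22012 promoter windows of protein-coding genes, these included. The single arm, which 9.84% of all those windows held, was in none of the 4 shown. MED1 held CCAAT, 76 bases before the start, and NRIP1 held it 105 and 89 bases before the start and a GC box 27 bases before it. CCAAT was in 32.7% and the GC box in 53.7% of all windows, and TATAAA in 9.02%. The NCOA3 and NCOR1 windows held none of the 5. A match is a run of letters only, and the sequence under the stronger PR regions described below was not used here.

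PR regions were found near all 8 genes under each treatment, and at all 8 the P4 list held more of them. The windows held 32 PR regions under vehicle and 98 under P4. Of all protein-coding genes, 74.6% had at least 1 PR region in the window under vehicle and 90.5% under P4. The 8 of 8 thus stood close to what most genes showed. Windows of all genes had a median length of 124 kb, against 255 kb for the 8. Shares of genes with a region in the window, here and below, were not matched for that length. More PR regions under P4 were held by 87.2% of all genes, as many by 12.0% and fewer by 0.762%. At 7 of the 8, all but NCOR1, the P4 count was at least 2 times the vehicle count, beside 84.3% of the genes with a vehicle region. The P4 list was 3.06 times as rich as the vehicle list over the 8 windows (exact 95% interval 2.04 to 4.72), against 2.86 times over the whole lists. When the longer PR list was trimmed to the length of the shorter one by −log10 q, the counts were 32 and 35. The P4 list was then the richer one at 4 genes and the poorer one at 3. Over all protein-coding genes, 36.5% had more PR regions under P4 in those equal lists.

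**Figure D1:**
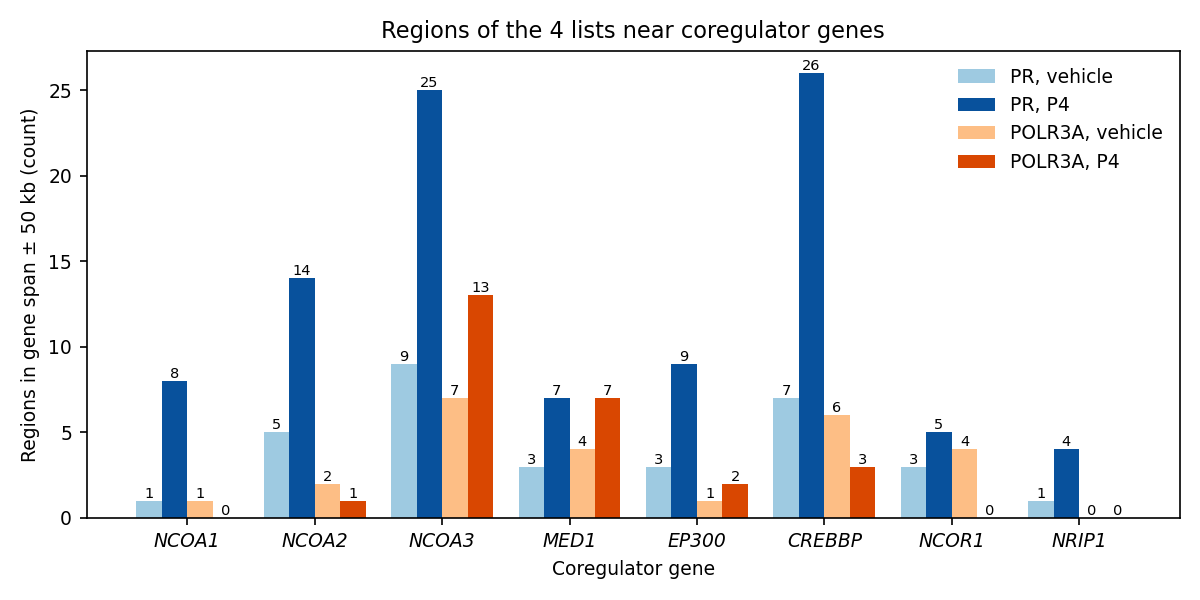
Number of regions (vertical axis) in the span of each gene and 50 kb on each side, for the PR and POLR3A lists under vehicle and P4; each bar is 1 list and has no error, since the replicates share it. The P4 PR bars are the tallest or tied for tallest at all 8 genes, with 26 regions at CREBBP and 25 at NCOA3, while POLR3A bars at NRIP1 are 0.

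Among the steroid receptor coactivators, NCOA3, which was first known as a gene amplified in breast cancer, had 9 PR regions under vehicle and 25 under P4. NCOA2 had 5 and 14, and NCOA1 had 1 and 8. Of the acetyltransferase genes, CREBBP had 7 and 26 and its paralogue EP300 3 and 9. MED1 had 3 and 7. The corepressor genes had fewer under P4 than any of the coactivator genes, 5 at NCOR1 (3 under vehicle) and 4 at NRIP1 (1 under vehicle). The windows differed in length, from 147 kb at MED1 to 447 kb at NCOA2.

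Per 100 kb of window, the order under P4 was CREBBP with 10.2 PR regions, NCOA3 with 9.80, EP300 with 4.80, MED1 with 4.76, NCOA2 with 3.13, NCOA1 with 2.11, NRIP1 with 1.95 and NCOR1 with 1.75. The exact Poisson 95% intervals, which cover counting error alone, were 6.64 to 14.9 for CREBBP and 6.34 to 14.5 for NCOA3. They were 2.20 to 9.11 for EP300 and 0.567 to 4.07 for NCOR1. Neighbours in this order overlapped in their intervals throughout, and CREBBP and NCOA3 lay clear of NCOA2, NCOA1, NRIP1 and NCOR1. Under vehicle the range was 0.264 at NCOA1 to 3.53 at NCOA3. The median over the 8 genes was 1.36 per 100 kb under vehicle and 3.95 under P4, beside 1.51 and 5.28 over all protein-coding genes. The windows of the 8 are long, with a median of 255 kb against 124 kb, and the medians over the 6571 genes with windows at least as long as that of MED1 were 1.00 and 3.49.

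The chromosomes that carry these genes differed in how densely PR regions covered them. On chromosome 20, which carries NCOA3, the median protein-coding gene had 13.8 PR regions per 100 kb under P4. On chromosome 2, which carries NCOA1, it had 2.66. Under P4, CREBBP stood above the median of its own chromosome, 9.51, and the other 7 genes stood below theirs. Under vehicle all 8 were below. NCOR1 and MED1 share chromosome 17, where the median was 10.8, and NCOR1 was denser than 8.64% of the genes there under P4. The part of the chromosome in the density near a gene was not tested.

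**Figure D2:**
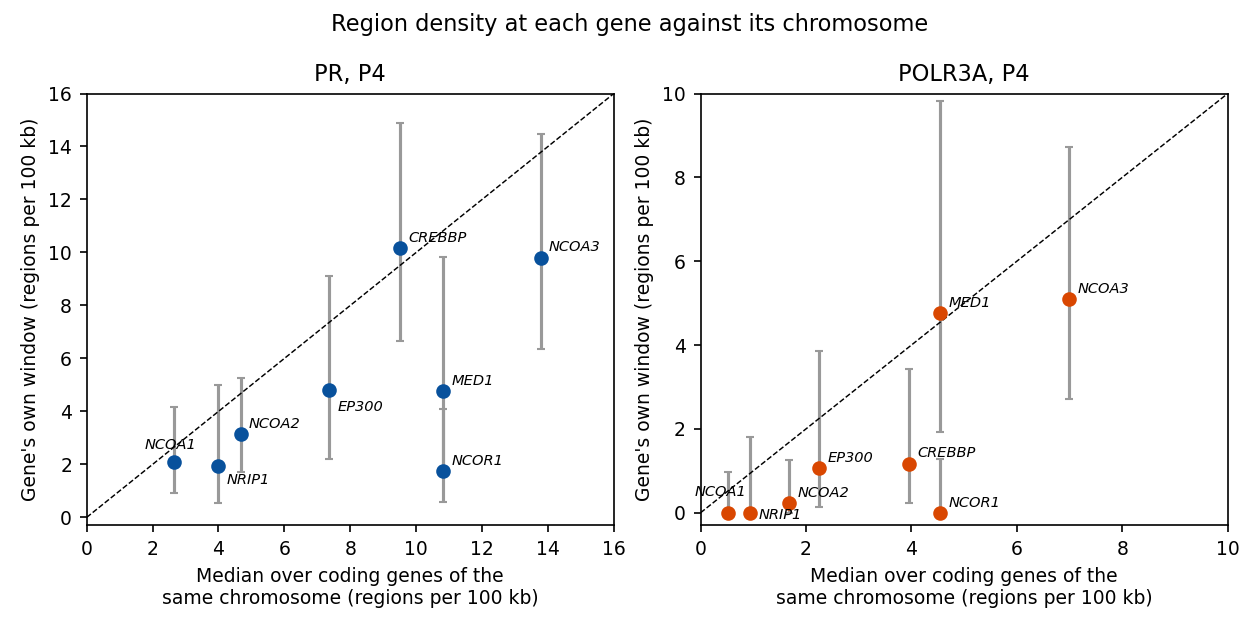
Regions per 100 kb of each gene's window under P4 (vertical axis) against the median over protein-coding genes of the same chromosome (horizontal axis), for PR (left) and POLR3A (right); bars are exact Poisson 95% intervals and the dashed line marks equality. For PR, CREBBP alone lies above the line, and NCOR1 at 1.75 lies farthest below it, against 10.8 for its chromosome.

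The strongest PR regions were few and stood at 4 genes. Regions are ranked here by −log10 q, the authors' own significance score, which orders regions within a list. In the P4 list, 6 of the 98 regions were in the top 5% of the whole list: 2 each at NCOA2 and CREBBP and 1 each at NCOA3 and NRIP1. Genes with such a region in the window made up 31.1% of all protein-coding genes. In the vehicle list none of the 8 genes had a region of the top 5%, which 13.0% of all genes had.

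The highest score of all lay beside CREBBP rather than in it. This region, on chromosome 16 (3695956 to 3696529), had a −log10 q of 186.5 and a fold enrichment over background of 30.2 under P4. Under vehicle the region at the same place (3696095 to 3696486) had a score of 67.6 and a fold of 17.2, the highest score of the 32 vehicle regions. Its P4 summit was 184 kb from the CREBBP transcription start and lay within TRAP1, which encodes a mitochondrial chaperone of the HSP90 family. Within CREBBP itself a pair of regions far from either gene end scored 99.8 (3776365 to 3776781) and 79.0 (3780540 to 3780938) under P4. The vehicle list scored them 18.3 and 18.8. Near the start of CREBBP, at 5.55 to 11.5 kb into the gene, P4 regions scored 27.7, 21.5 and 21.3, and the second of these had a vehicle counterpart with a score of 5.64.

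NCOA2, on chromosome 8, had a group of strong regions inside the gene. The strongest (70271551 to 70271940) scored 170.3 under P4, with a fold of 22.9, and 23.5 under vehicle, with a fold of 6.75. Its neighbour (70270223 to 70270672) scored 87.5 and 10.4, and the third (70244778 to 70245073) 54.8 and 6.66. All 3 were thus in both PR lists, and none overlapped a POLR3A region. Of all PR P4 regions with a score of at least 50, 98.0% overlapped a PR vehicle region and 38.3% a POLR3A region. A further P4 region (70456303 to 70456577) lay over the higher-coordinate end of the gene, with its summit 5 bp outside it, and scored 21.6. It had no vehicle counterpart.

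At NCOA3, on chromosome 20, the strongest PR region (47464311 to 47464804) was 37.3 kb upstream of the transcription start. It scored 103.9 under P4 and 39.8 under vehicle. A second (47506423 to 47506711), 4.67 kb into the gene, scored 60.6 and 20.2. A region 18.6 kb upstream (47483221 to 47483478) scored 38.5 under P4 and was absent from the vehicle list. It was the highest-scoring of the 74 P4 regions in the windows that overlapped no vehicle region.

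NRIP1, on chromosome 21, had few PR regions, and 1 of them ranked high. This region lay within the gene (14981263 to 14981580), 84.5 kb from the outermost start, and scored 142.8 under P4, with a fold of 27.3. In the vehicle list it was the gene's single region and scored 26.0, with a fold of 9.43. The other 3 P4 regions scored 5.25, 4.87 and 3.55, and the one with 4.87 is the promoter region marked in the sequence above.

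NCOA1, EP300, MED1 and NCOR1 had no region with a P4 score above 22.6. At NCOA1, on chromosome 2, the highest was 12.4, 31.7 kb upstream of the start (24459470 to 24459681), where the vehicle list held the gene's only region with 4.92. At EP300, on chromosome 22, it was 22.6, within the neighbouring L3MBTL2 (41223238 to 41223762), and the highest near the gene's own start was 16.7, at 6.57 kb upstream (41085869 to 41086370), with 6.37 under vehicle. At MED1, on chromosome 17, it was 10.9, beyond the gene's 3′ end in FBXL20 (39400428 to 39400892). At NCOR1, also on chromosome 17, it was 9.17, 1.88 kb upstream of the start and within PIGL (16217122 to 16217653), with 4.24 under vehicle. These 4 genes thus carried PR regions in both lists but none of the top 5%.

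**Figure D3:**
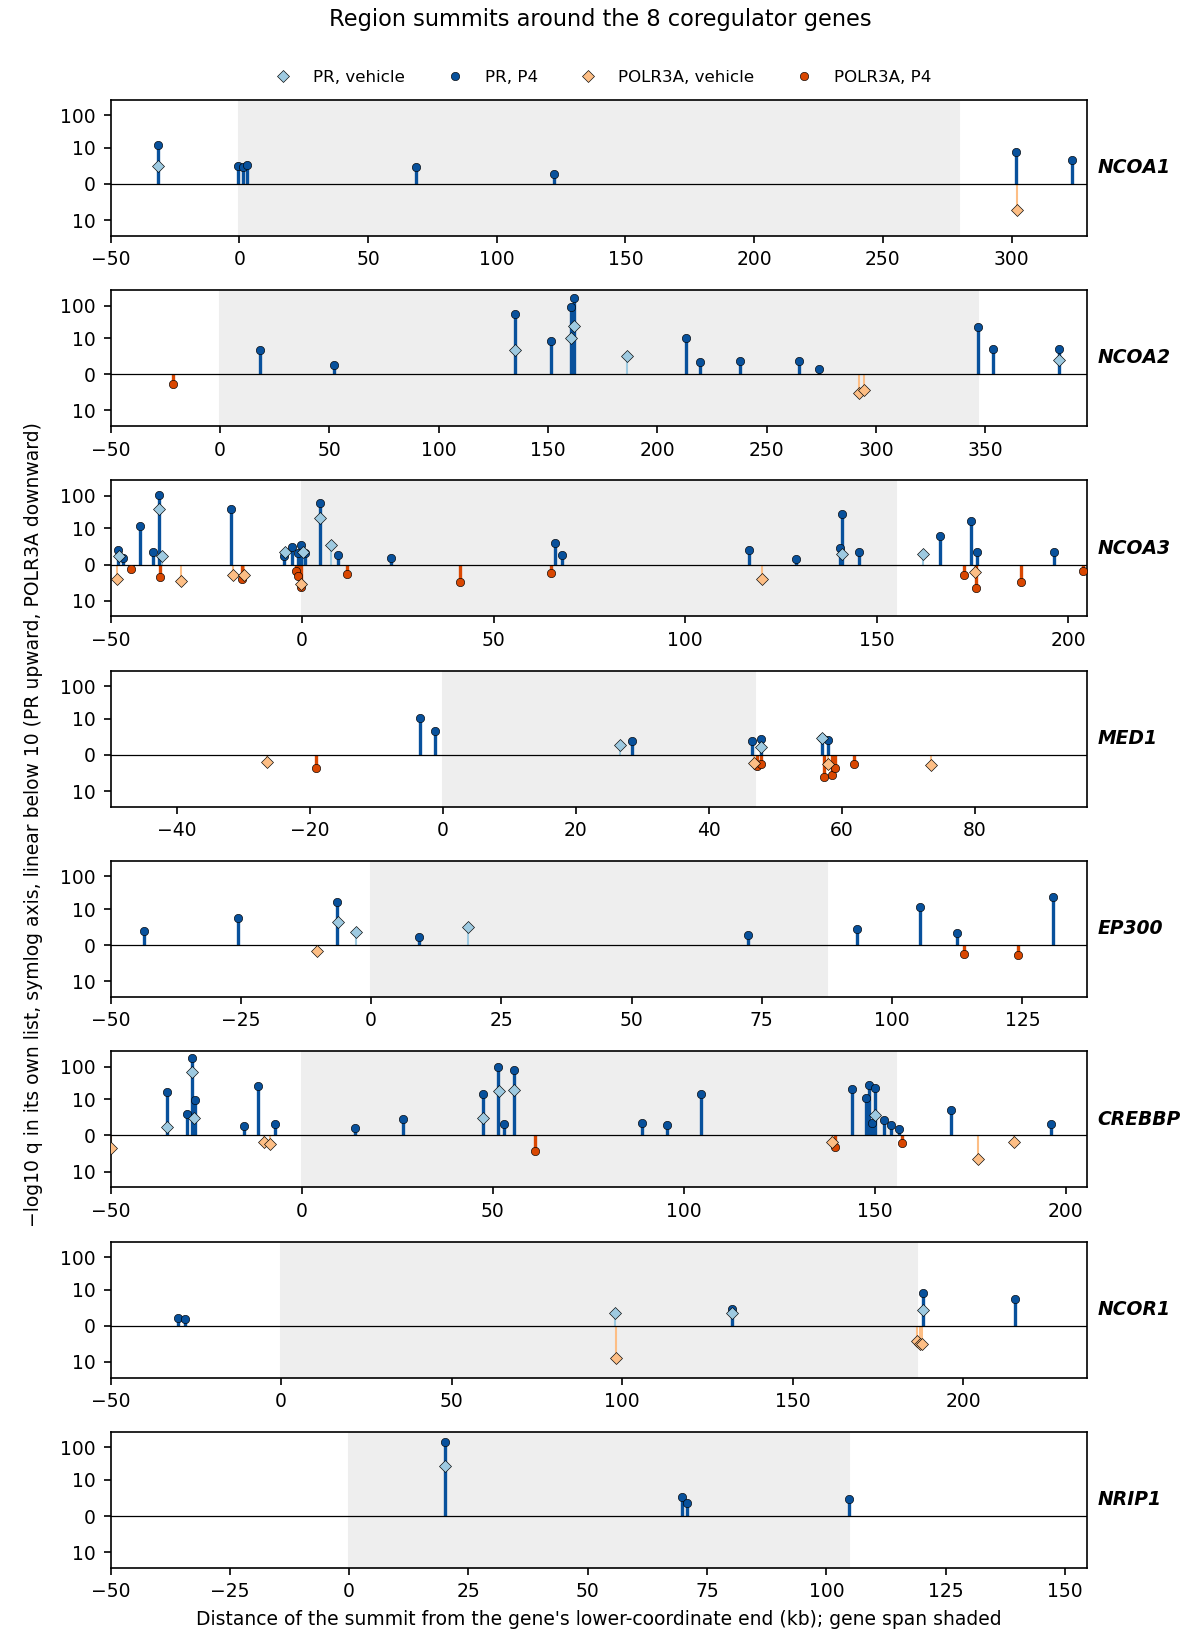
Position of each region's summit in kb from the gene's lower-coordinate end (horizontal axes, gene span shaded) and its −log10 q in its own list (vertical axes, symmetric log scale that is linear below 10), with PR upward and POLR3A downward. Tall PR stems stand inside NCOA2 and NRIP1 and in or beside CREBBP and NCOA3, while no POLR3A stem exceeds 8.91.

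The PR regions with the highest scores were found under both treatments. Of the 98 P4 regions in the windows, 24 overlapped a vehicle region, 24.5% (Wilson 95% interval 17.0 to 33.9), beside 25.8% of the whole list. Conversely, 24 of the 32 found under vehicle, 75.0% (57.9 to 86.7), overlapped a P4 region, beside 75.7%. The 24 shared regions had a median P4 score of 16.7, and the 74 others a median of 4.01. All 9 P4 regions with a score of at least 50 overlapped a vehicle region, beside 98.0% of the 8985 such regions in the whole list. Of the 28 with a score of at least 10, 15 overlapped a vehicle region and 13 did not. Of the 98, 52 scored below 5.

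Every gene had at least 1 PR region in both lists, from 1 each at NCOA1, EP300 and NRIP1 to 6 at NCOA3 and 7 at CREBBP. At CREBBP, NCOA1 and NRIP1 each vehicle region had a P4 counterpart. In 22 of the 24 shared places, 91.7%, both the score and the fold enrichment were larger in the P4 list. Over the whole lists that held for the score in 85.9% of 29828 pairs and for the fold in 80.7%. The exceptions were a weak region 4.5 kb upstream of NCOA3 (3.39 under vehicle and 2.30 under P4) and one 10.1 kb upstream of MED1 (4.67 and 4.59). Both scores depend on the depth of the libraries, which is unknown, so the values stand side by side and do not measure a change. The summits of the pairs lay a median of 45 bp apart, beside 31 bp over the whole lists.

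**Figure D4:**
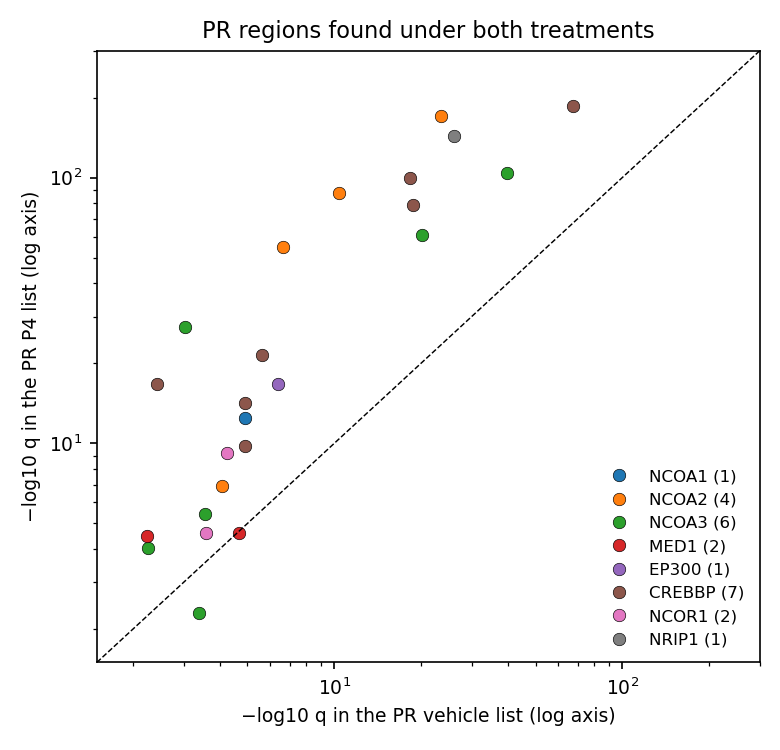
Score (−log10 q) of the 24 PR regions found under both treatments, in the vehicle list (horizontal log axis) and the P4 list (vertical log axis), coloured by gene with the number per gene in the key; the dashed line marks equality. All but 2 points lie above the line, and the highest P4 scores, 186.5, 170.3 and 142.8, belong to CREBBP, NCOA2 and NRIP1.

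POLR3A regions were found near 7 of the genes, all but NRIP1. POLR3A belongs to the catalytic core of the polymerase that makes transfer RNAs and other small RNAs. The windows held 25 POLR3A regions under vehicle and 26 under P4, a ratio of 1.04 (exact 95% interval 0.577 to 1.88), beside 1.64 over the whole lists. NCOA3 had 7 under vehicle and 13 under P4, MED1 4 and 7, and EP300 1 and 2. CREBBP had 6 and 3, NCOR1 4 and 0, NCOA2 2 and 1, and NCOA1 1 and 0. NRIP1 had none in either list, as had 21.8% of all protein-coding genes. The windows reach into neighbouring genes. In the MED1 window the highest-scoring POLR3A region of each list lay within CDK12 (2.84 under vehicle and 6.20 under P4). The EP300 P4 regions lay within L3MBTL2. Over the gene span alone, NCOA3 had 2 under vehicle and 4 under P4, and MED1 1 and 0.

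A POLR3A region was thus near 7 of the 8 genes under vehicle and 5 under P4, beside 68.7% and 71.9% of all protein-coding genes. The count was larger under P4 at 3 genes and smaller at 4, where 51.3% of all genes had more, 16.2% fewer and 32.4% as many. With the POLR3A lists trimmed to equal length by −log10 q, 2 of the 8 genes had more under P4 and 5 had fewer. In those lists 26.0% of all genes had more under P4. NCOA3 supplied 13 of the 26 P4 regions, and without it the counts were 18 and 13, a ratio of 0.722. Without MED1 it was 0.905 and without EP300 1.00. Leaving out NCOR1 gave 1.24, CREBBP 1.21, NCOA2 1.09 and NCOA1 1.08. The larger counts at NCOA3 and MED1 and the smaller ones at NCOR1 and CREBBP had no replicate check. Per 100 kb the median over the 8 genes was 0.965 under vehicle and 0.645 under P4, beside 0.971 and 1.72 over all genes and 0.577 and 0.814 over the 6571 long-window genes.

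No POLR3A region at these genes was among the top 5% of its list, which 5.48% of all genes had in the vehicle list and 7.97% in the P4 list. The highest vehicle score was 8.91, within NCOR1 (16127161 to 16127702). The highest P4 score was 6.47, downstream of NCOA3 within SULF2 (47677749 to 47678404), a heparan sulfate endosulfatase gene. The median scores of 3.53 and 3.19 were close to those of the whole lists, 3.53 and 3.22. Of the 26 P4 regions 2 overlapped a vehicle one, 7.69% (Wilson 95% interval 2.14 to 24.1), beside 25.8% of the whole list and 20.004% of the list's regions in the same range of scores. These were at the NCOA3 and MED1 promoters. The comparison over the same range of scores was chosen after the data had been seen.

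PR and POLR3A seldom met at these genes. Under vehicle, 2 of the 25 POLR3A regions overlapped a PR region, 8.00% (Wilson 95% interval 2.22 to 24.97), beside 32.3% of the whole list and 28.4% in the same range of scores. Under P4, 6 of 26 did so, 23.1% (11.0 to 42.1), beside 50.5% and 46.6%. Of those 6, 4 were at NCOA3 and 2 at MED1. Of the 9 PR P4 regions with a score of at least 50, 1 overlapped a POLR3A region of either list, the one 37.3 kb upstream of NCOA3. Over the whole list 38.3% of such regions did. The intervals cover counting error alone, and regions within a window are not independent.

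When overlapping regions of the 4 lists were merged, the windows held 144 separate places. PR under P4 alone accounted for 70 of them, and PR under both treatments without POLR3A for 18. POLR3A under vehicle alone and under P4 alone accounted for 19 each. A single place was in all 4 lists, the NCOA3 promoter on chromosome 20 (47501263 to 47502307), with PR scores of 3.56 under vehicle and 5.43 under P4 and POLR3A scores of 5.34 and 6.21. Places in 3 lists numbered 6, of which 3 were at MED1, 2 at NCOA3 and 1 at NCOR1.

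Regions within 1 kb of a transcription start were found at most of these genes in at least 1 list. RefSeq promoters were at hand for 7 of the genes, NCOA2 being the other. At NCOA2 either gene end was taken instead, and a PR P4 region over its higher-coordinate end scored 21.6. Within 1 kb of a listed start, PR regions were found at 2 of the 7 under vehicle (NCOA3 and MED1) and at 5 under P4 (NCOA1, NCOA3, MED1, CREBBP and NRIP1). Of all protein-coding genes with a listed start, 22.7% and 48.4% had one. POLR3A regions were found at NCOA3, MED1 and NCOR1 under vehicle and at NCOA3 and MED1 under P4, beside 30.6% and 32.8%. EP300 had none in any list. The highest PR score within 1 kb of a listed start was 5.43, at NCOA3, and the highest POLR3A score was 6.21, also there. In their own lists these stood above 55.0% and 87.4% of all regions.

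The corepressor gene NCOR1 had a promoter pattern with POLR3A under vehicle alone. Regions with scores of 4.19 (16215527 to 16215757) and 4.89 (16216243 to 16216467) lay 124 and 808 bp upstream of its start in that list, and the P4 list had none in the window. The coactivator gene MED1 had a vehicle POLR3A region over its start (39451016 to 39451539, score 2.26) and a P4 one just upstream (39451397 to 39451778, score 3.17), which overlapped over the bases in capitals above. PR P4 regions flanked the MED1 start on both sides, with summits 431 bp inside the gene and 816 bp upstream and scores of 3.96 and 4.50.

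Regions were also counted inside and outside the gene spans. The gene spans made up 63.0% of the window length. Summits inside them made up 53.1% of the PR regions under vehicle and 51.0% under P4, but 24.0% and 19.2% of the POLR3A regions. For POLR3A that is 6 of 25 and 5 of 26. NCOA3 and MED1 held 20 of the 26 P4 regions, and 12 of the 13 upstream ones in that list. The shares were not set against other genes and were not tested. Upstream of the 7 genes with a known strand there were 13 POLR3A regions in each list, and downstream 6 and 7. PR regions were upstream in 10 and 24 cases and downstream in 4 and 21. The regions near these genes had median widths of 255 and 273 bp for PR and 236 and 257.5 bp for POLR3A, beside 276 to 290 bp over the whole lists.

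A list of 71 other coregulator genes had a higher median density of PR regions than the 8, in shorter windows (median 151 kb). It was 1.96 under vehicle and 7.44 under P4, beside 1.36 and 3.95 for the 8 genes and 1.51 and 5.28 for all. PR regions were in the windows of 59 of the 71 under vehicle and 67 under P4, with more under P4 at 65, fewer at 0 and as many at 6. POLR3A regions were near 58 and 61 of them, with more under P4 at 40 and fewer at 11. By role, the P4 medians for PR were 8.76 over 23 other coactivators, 3.77 over 18 Mediator genes, 8.66 over 10 chromatin remodellers and 8.74 over 20 other corepressors.

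Within each role the density under P4 varied widely. Among the other coactivators it ran from 0.797 PR regions per 100 kb at NCOA7 to 26.8 at the histone methyltransferase KMT2D. Among Mediator genes it ran from 0 at CCNC, the cyclin of the Mediator kinase, to 18.4 at MED13L. Among the corepressors it ran from 0 at the histone deacetylase HDAC2, tied with another gene, to 16.3 at TBL1XR1, a partner of NCOR1. Among the remodellers it ran from 0 to 26.7. Of the 71 genes, 4 had no region in any of the 4 lists, CCNC and HDAC2 among them. No other gene of the 71 lacked a PR region under both treatments.

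**Figure D5:**
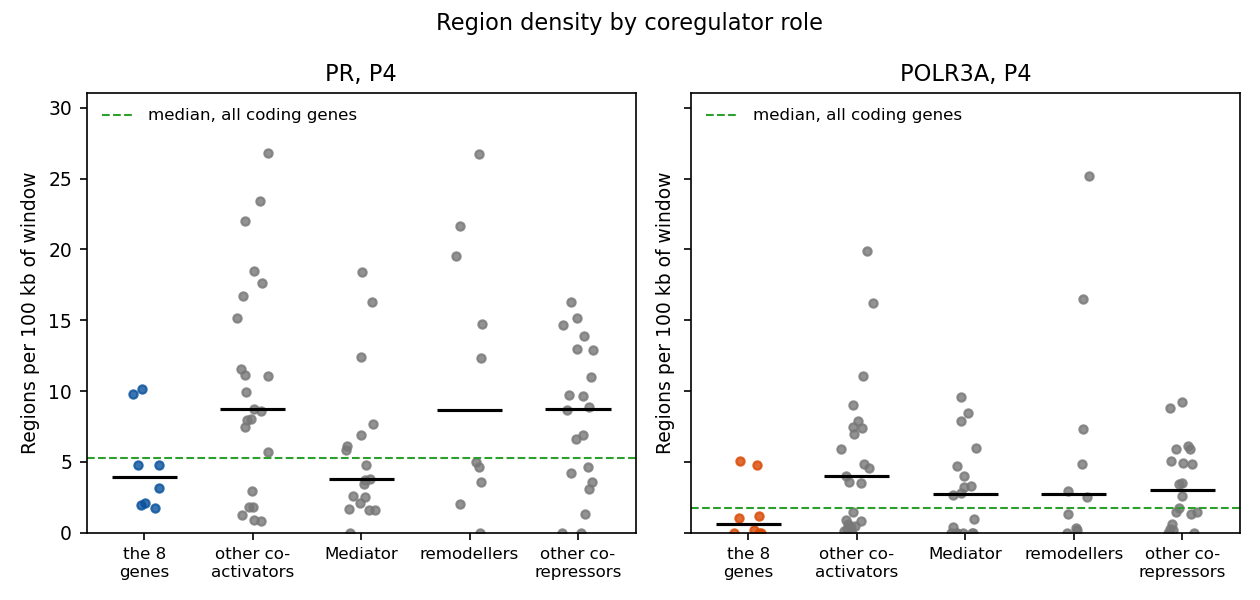
Regions per 100 kb of window under P4 (vertical axis) for PR (left) and POLR3A (right) at the 8 genes and at 71 other coregulator genes by role; each point is a gene, black lines are medians and the dashed green line is the median over all protein-coding genes. For PR the median of the 8 genes is 3.95, and those of the other coactivators and corepressors are 8.76 and 8.74.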

How the data were processed

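ChIP-seq peak lists for PR and POLR3A in T47D cells under vehicle or P4 were analysed, 1 list for each antibody and treatment. The submitters' processing notes name cutadapt, Bowtie2, MACS2 and the build hg38, with no versions, and the control and the pooling of replicates are not given in the sources used here. The deposited lists give each region's position, summit, fold enrichment (a ratio), −log10 p and −log10 q, as the authors' peak caller wrote them. The fold and −log10 q were used as deposited, to rank and filter within a list. The authors' integer display score and the −log10 p were left out. The lists hold no read counts, so the depth per sample is unknown. The highest q of any row was 0.0497.

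Genes came from RefSeq GRCh38.p14, and 58419 of 59098 genes on chromosomes 1 to 22 and X were kept, since rows of a chromosome after the point where start positions fall back were left out. A region belonged to a gene when 1 bp of it reached the span or 50 kb on each side, and 1 bp also counted as overlap between lists. Shares carry 95% Wilson intervals, and densities exact Poisson ones. Strand and transcription starts came from the RefSeq promoter table. Named were the 8 genes, the strongest region of each list at each, the regions within 1 kb of a start, and, by role, the densest and sparsest of the other coregulators, at most 6. Of the 3 genes most like NCOA3 in their counts, 1 is not reported here. The other strong regions described at a gene were chosen after their values were seen. Code ran in Python 3.11.15 with pandas 2.3.3 and scipy 1.17.1. The window counts were checked with bedtools 2.31.1, which gave the same number in 32 of 32 cases, and in 1000 of 1000 simulated windows they equalled a direct count. The genes and lists were chosen with earlier results of these data known. Alternatives changed the threshold, list length, window, summit rule and overlap.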

Additional observations from a re-analysis of the deposited data

How the results depend on the processing

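Of 61 alternative values on all 8 genes, 42 did not turn direction and stayed within the interval or margin of the reported value. Another 6, all POLR3A ratios, turned direction within the reported interval. For single genes, 81 of 107 met the same rule, which let an even split of 50% pass. Such splits were found for PR at NRIP1 and for POLR3A at NCOA3, EP300 and CREBBP. The single-gene intervals were wide, such as 9.43% to 99.2% for POLR3A at EP300, so lying within them says little. With the longer list trimmed to the shorter by −log10 q or by fold, the ratio of PR regions under P4 to vehicle was 1.09 and 1.19, with more under P4 at 4 genes in both cases. The share of PR P4 regions with a vehicle counterpart was 48.6% and 44.7%. For the share of POLR3A P4 regions with PR, the PR P4 list was trimmed to the length of the POLR3A P4 list. That share was 3.85% and 7.69%. Shares over the whole lists were not computed under these cuts, so none stands beside these values. The POLR3A ratio turned below 1 under those cuts, 0.6 and 0.68, and also at −log10 q of at least 5 (0.8), over the gene span alone (0.75), with 10 kb on each side (0.917) and, added after seeing the data, without NCOA3 (0.722). POLR3A was more frequent under P4 at 1 gene with lists equal by fold. At −log10 q of at least 10 it was so at 0 genes, since no POLR3A region of either list was left in the 8 windows. No POLR3A ratio or share could then be formed. The share of POLR3A vehicle regions with PR was 0% at −log10 q of at least 5, 25% over the gene span alone and 0% with a reciprocal overlap of 50%.

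For single genes, the share of both lists' PR regions that were in the P4 list fell below 50% with equal lists by −log10 q and by fold at NCOA3 (43.75% and 40%), MED1 (25% and 40%) and NCOR1 (40% in each). At NCOR1 it was also 33.3% over the gene span alone and 40% with 10 kb. For POLR3A the direction turned over the gene span alone at MED1 (0%) and CREBBP (66.7%), and with equal lists by −log10 q at EP300 (0%). The cause was not tested beyond the shorter lists and windows themselves. No paired analysis was possible because the replicates of a group share 1 list, and for the same reason no replicate could be left out.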

Other observations

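By a rule that compared the numbers of regions in the 4 lists on a log2(count + 1) scale, protein-coding genes much like NCOA3, the gene with the most regions (54), were CACNA1I on chromosome 22 and TXNRD1 on chromosome 12. The summed differences over the 4 lists were 0.33 and 0.52 among genes with windows within 25% of its length. For PR under vehicle, PR under P4, POLR3A under vehicle and POLR3A under P4, in that order, NCOA3 had 9, 25, 7 and 13 regions and CACNA1I, a calcium channel gene, had 9, 27, 7 and 11. TXNRD1, a thioredoxin reductase gene, had 10, 33, 7 and 13. Each list is 1 value per gene, so this is likeness over 4 numbers.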
